A study of Caenorhabditis elegans with 2 samples.

Results

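The 41 genes described here encode the common equipment of nerve cells in Caenorhabditis elegans, among them the proteins of synaptic vesicles, active zones, dense-core vesicles and axonal transport. They were taken as a list of names, chosen with earlier results of these data known. All 41 of the 41 names matched 1 of the 19973 protein-coding genes annotated on the 6 nuclear chromosomes of WBcel235, the assembly known as ce11. Binding of the transcription factor PAG-3 had been mapped by chromatin immunoprecipitation and sequencing in 1 group of 2 biological replicates, each of whole hermaphrodites in late embryogenesis, taken 4 hours after synchronisation by bleaching of eggs. All worms were of strain OP154, genotype unc-119(ed3) III; wgIs154, with a stably expressed transgene for PAG-3 carrying GFP and FLAG tags at its C terminus, and the precipitation used an antibody against GFP. No other condition was compared, the depth of the libraries is unknown, and RNA was not measured, so the presence of neurons was not checked against markers. Whole embryos were used, so binding in neurons and in other cells cannot be told apart.

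Neurotransmitter is released when vesicles dock at the active zone, are primed, and fuse through the SNARE proteins, after which the membrane is retrieved by endocytosis. Neuropeptides leave from dense-core vesicles, and both kinds of vesicle reach the axon on kinesin motors. Most of these genes are used by every class of neuron. PAG-3 is a zinc-finger protein related to the vertebrate GFI repressors and to Drosophila Senseless, and is known for its part in the fates of particular worm neurons.

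Regions were placed at a gene when the summit lay in its promoter window (1000 bp upstream to 200 bp downstream of any transcript start), in its body, or nearer to one of its starts than to that of any other protein-coding gene. The list pooled over both replicates held 21336 candidate regions, a permissive set in which the lowest signal value was 24.2 and the highest 685. The signal value is the authors' own score of enrichment per region, and the sources used here do not give its scale. The authors' stricter list, cut at an irreproducible discovery rate (IDR), held 327 regions in ce11, all with a signal value of at least 84.0, and 471 in ce10, with at least 76.3. In all, 147 pooled candidates were placed at the 41 genes. Some of these overlapped one another and matched the same replicate regions, as at unc-116, ric-19, unc-33, cla-1 and unc-10. Counts of candidates, also per kb, are therefore not counts of separate sites.

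Sequences are shown for the regions on which the results turn, as the summit with 50 bases on either side, on the coding strand of the gene in ce11. They are the IDR peak of cla-1 on chrIV:7619508-7619608, the region of rgef-1 on chrV:9561948-9562048, that of syd-2 on chrX:10555627-10555727 and that of jnk-1 on chrIV:6958922-6959022. The distal region of cla-1 lies on chrIV:7585661-7585761, and the upstream regions of unc-31 and sad-1 lie on chrIV:12771626-12771726 and chrX:13502400-13502500. The last pair are the strongest region of unc-51, on chrV:19999963-20000063, and its region just under the IDR limit, on chrV:19996767-19996867. Capitals mark 4 words, each read on either strand. The word ATCGAT stands in the regions of rgef-1, syd-2, jnk-1 and the distal one of cla-1. The word GAAGAA, or TTCTTC on the other strand, stands in those of rgef-1 and sad-1. The word GGACCAA is marked as TTGGTCC in the strongest region of unc-51. The word CCTAAG is marked as CTTAGG in the other region of unc-51.
cla-1 peak: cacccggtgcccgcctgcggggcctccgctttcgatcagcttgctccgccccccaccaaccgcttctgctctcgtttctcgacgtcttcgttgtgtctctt
rgef-1: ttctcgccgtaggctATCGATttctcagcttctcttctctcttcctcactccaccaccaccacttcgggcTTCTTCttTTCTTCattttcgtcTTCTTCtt
syd-2: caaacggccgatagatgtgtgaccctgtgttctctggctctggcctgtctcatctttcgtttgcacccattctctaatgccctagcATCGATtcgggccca
jnk-1: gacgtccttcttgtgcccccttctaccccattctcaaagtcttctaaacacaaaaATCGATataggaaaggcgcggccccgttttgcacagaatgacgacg
cla-1 distal: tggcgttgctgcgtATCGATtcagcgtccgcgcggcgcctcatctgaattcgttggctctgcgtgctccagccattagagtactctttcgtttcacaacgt
unc-31: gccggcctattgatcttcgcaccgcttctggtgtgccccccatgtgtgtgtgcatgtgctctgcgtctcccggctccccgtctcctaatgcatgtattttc
sad-1: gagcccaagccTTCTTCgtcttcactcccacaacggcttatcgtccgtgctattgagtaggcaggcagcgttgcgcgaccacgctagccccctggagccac
unc-51 strongest: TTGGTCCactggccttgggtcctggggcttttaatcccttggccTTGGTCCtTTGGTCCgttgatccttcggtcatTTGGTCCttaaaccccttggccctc
unc-51 under the limit: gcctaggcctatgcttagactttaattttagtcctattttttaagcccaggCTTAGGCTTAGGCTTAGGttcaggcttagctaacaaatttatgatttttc

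Candidate regions were common at these genes, and most lay below the IDR limit. The deposited -log10 q reached down to 0.0177 in the pooled list, so a candidate is not by itself a called peak. A promoter candidate was present at 25 of the 41 genes (61%, 95% Wilson interval 45.7% to 74.3%), against 31.0% of all protein-coding genes. The gene body held a candidate at 35 genes, against a background of 38.5%, and 39 genes had one by nearest transcript start, against 52.3%. By any of the 3 assignments 40 genes had a candidate, against 58.9%, and nrx-1, which encodes the adhesion protein neurexin, had none. The genes without a candidate in the promoter window were sad-1, rpm-1, nrx-1, unc-64, ric-4, snt-1, tom-1, cpx-1, unc-26, ehs-1, egl-3, ida-1, unc-104, unc-51, jnk-1 and ric-8.

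The IDR list reached few of them. Of the promoter windows, that of 1 gene, cla-1, held an IDR peak, against 1.11% of all genes, and in the body of 2, unc-51 and cla-1, against 0.626%. By nearest transcript start the count was 3 (unc-51, unc-57 and cla-1), against 1.59%. Under the 3 assignments together the same 3 genes had one, or 7.32% (Wilson interval 2.52% to 19.4%) against 2.05%. Intervals treat genes as independent and cover counting error only.

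Just below the IDR limit the genes were more numerous, by limits that were all added after the values were seen. Among the 471 strongest pooled regions, the number in the ce10 IDR list, 8 of the 41 genes were reached by any of the 3 assignments. That is 19.5% (Wilson interval 10.2% to 34.0%), against 2.85% of all genes. The additional genes were rgef-1, syd-2, unc-31, egl-3 and jnk-1. In promoter windows the count was 3, against 1.49%, in bodies it was 3, against 0.936%, and by nearest start 8, against 2.25%. Among the 1000 strongest, 6 genes were reached in the promoter (against 2.56%), 5 in the body (2.14%), 11 by nearest start (4.54%) and 11 by any assignment (5.40%). Among the 2000 strongest, a limit likewise chosen after the values were seen, 11 genes had the region in the promoter window (26.8%, Wilson interval 15.7% to 41.9%), against 4.52%. The body was reached in 5 genes, against 4.38%, the nearest start in 19, against 8.41%, and 19 were reached by any assignment, against 9.95%. The 11 promoter genes were cla-1, rgef-1, syd-2, unc-76, egl-21, unc-14, unc-11, maco-1, snn-1, snb-1 and ric-7. The deposited -log10 q of their strongest promoter regions ran from 1.82 at syd-2 to 0.786 at ric-7. The lowest in the IDR list was 1.79. The count of 11 genes became 10 from replicate 2 alone, against 4.76% of all genes, and 6 from replicate 1 alone, against 4.05%.

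**Figure D1:**
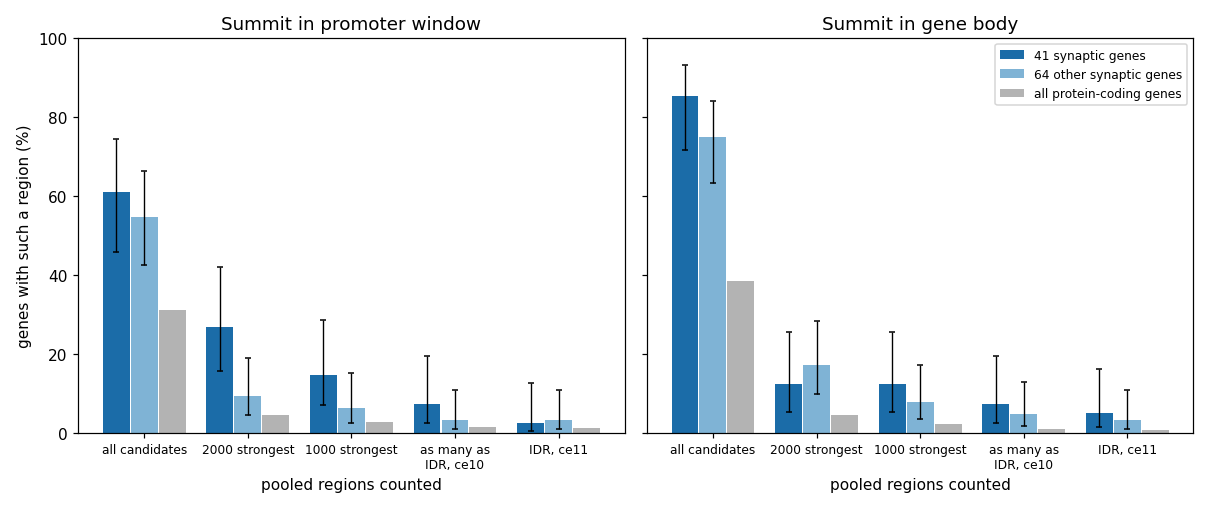
Share of genes (%) with a region whose summit lies in the promoter window (left) or the gene body (right), counting all pooled candidates, the 2000 or 1000 strongest, as many as the ce10 IDR list, or the ce11 IDR peaks; error bars are 95% Wilson intervals over genes. In promoters the 41 genes stand at 26.8% among the 2000 strongest regions against 4.52% of all protein-coding genes, and at 2.44% against 1.11% for IDR peaks.

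These genes are long, so that more regions can fall in them. Their median length was 7513 bp, against 2027 bp over all protein-coding genes, with a median of 2 distinct transcript starts against 1. Per length, the bodies held 0.244 candidates per kb against 0.222 per kb over all genes. From replicate 2 alone the body values were 0.244 against 0.237, and from replicate 1 alone 0.257 against 0.240. In the pooled list promoter windows held 0.407 per kb against 0.269, and the stretches nearest to the genes' starts held 0.295 against 0.213. For the 2000 strongest regions the promoter windows held 11.8 per 100 kb against 3.29. The gene bodies held 2.31 per 100 kb against 1.66, and without unc-51 they held 1.31, so that for bodies unc-51 decided on which side of the background the value fell.

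The median signal value of the strongest promoter candidate was 45.3 over the 25 genes that had one, and 34.3 over the 6185 protein-coding genes that had one. The gap was smaller within the replicate lists, whose scale is lower, at 20.9 against 19.1 in replicate 2 alone and 22.4 against 18.7 in replicate 1 alone. For the strongest gene body candidate the medians were 36.3 and 33.9. The median distance from the closest own start was 331.5 bp for the 38 promoter regions of these genes and 299.5 bp for all promoter candidates.

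**Figure D2:**
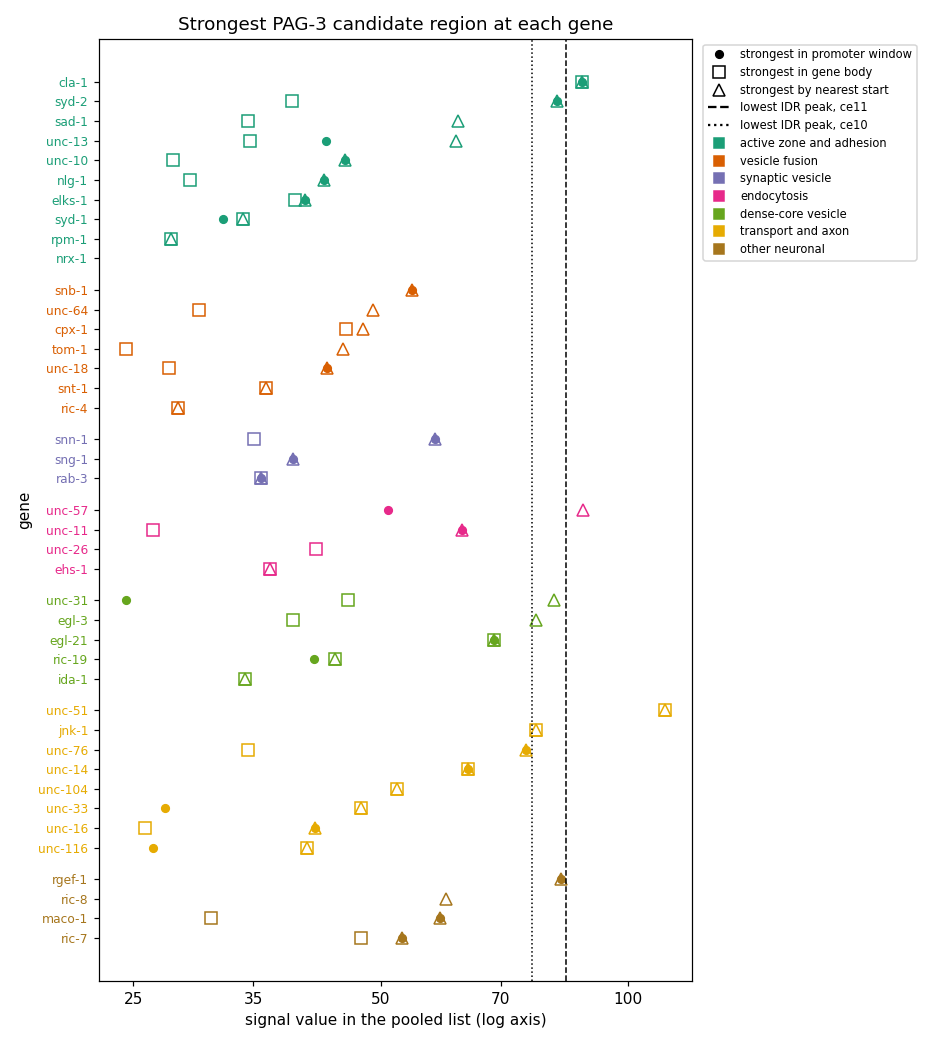
Signal value in the pooled list (log axis) of the strongest candidate in the promoter window, in the gene body and by nearest start for each of the 41 genes, coloured by role; vertical lines mark the lowest IDR peak in ce11 and ce10. Markers of unc-51, unc-57 and cla-1 lie right of the ce11 line, and nrx-1 has no marker.

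Of the 10 active zone and adhesion genes, 7 had a promoter candidate and 9 a gene body candidate. For this role and those that follow, the shares over all protein-coding genes were 31.0% and 38.5%. Differences between roles were not tested. The strongest belonged to cla-1, which encodes Clarinet, a large active zone protein, on chromosome IV from 7588931 to 7628238. Its IDR peak, from 7619333 to 7619782, had a pooled signal value of 87.9 and rank 279, with a deposited -log10 q of 1.79. The replicates gave 49.96 (rank 185) and 40.0 (rank 583), or 45.0 ± 7.08 (mean ± SD, n = 2). The peak was thus well ranked in both. It lay within the gene, 185 bp upstream of an internal transcript start and 30402 to 30851 bp from the outermost start, in an intron, and the non-coding RNA gene F45E4.15 lay within 100 bp of the summit. With only the outermost start of each gene, the promoter count of IDR peaks was 0, against 0.986% of all genes.

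The long cla-1 gene carried 9 candidates in its body, the most of any of the 41 genes, but only 0.229 per kb. A region 3220 bp upstream of the outermost start had a pooled signal value of 69.9, with 27.4 in replicate 1 and 39.6 in replicate 2. An intronic region 3065 bp downstream of the closest start had 60.6 in the pooled list. Of these, the one beside an internal start was the strongest.

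**Figure D3:**
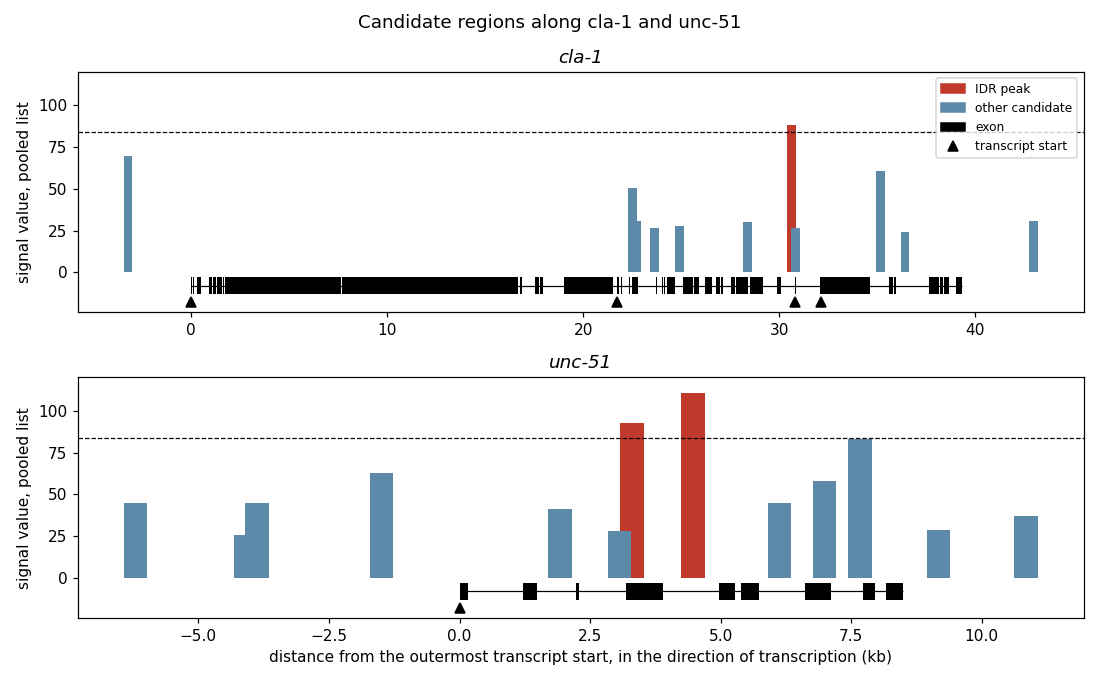
Pooled candidates (bars, height is the signal value, width the region) along cla-1 and unc-51 against distance (kb) from the outermost transcript start, with exons, transcript starts and the lowest IDR signal value (dashed). The IDR peak of cla-1 stands beside an internal start, and both IDR peaks of unc-51 lie inside the gene.

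The liprin gene syd-2, which organises active zones, had a promoter region 438 bp upstream of a start with a pooled signal value of 82.0 and rank 365, below the IDR limit. The replicates gave 38.9 and 38.4, or 38.6 ± 0.352 (SD, n = 2), the smallest SD among the 35 strongest regions matched in both replicates. A non-coding RNA gene, F59F5.9, lay within 100 bp of that summit. For the kinase gene sad-1 the replicates were far apart: its upstream region, 1782 bp from a start, ranked 321 in replicate 2 (signal value 47.1) and 22847 in replicate 1 (13.3). The vesicle priming gene unc-13 had 7 gene body candidates, none above 34.7, and an upstream region of 61.7 at 1262 bp from a start. The RIM gene unc-10 had 45.3 in its promoter window, the neuroligin gene nlg-1 had 42.7 and elks-1 had 40.5. The gene syd-1, which acts in the assembly of presynaptic sites, had 5 gene body candidates, the strongest at 34.0. The ubiquitin ligase gene rpm-1 had 27.7 as its strongest value, near the floor of the list.

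Of the 7 vesicle fusion genes, 2 had a promoter candidate and 6 a body candidate. They were snb-1, which encodes synaptobrevin, with a pooled signal value of 54.7 at 558 bp upstream of its start, and unc-18, the partner of syntaxin, with 43.1. For snb-1 the replicates gave 22.8 and 34.4, or 28.6 ± 8.20 (SD, n = 2). The syntaxin gene unc-64 had its strongest region 1224 bp upstream of a start, just outside the window, with 49.0 in the pooled list, 13.9 in replicate 1 and 33.2 in replicate 2. The complexin gene cpx-1 had a gene body candidate of 45.3 and a region of 47.6 at 2353 bp upstream. Complexin is a clamp on the fusion machinery, and cpx-1 is a short gene whose 1 body candidate gave 0.638 per kb. The SNAP-25 gene ric-4 (28.3) and the synaptotagmin gene snt-1 (36.3) had their strongest candidates in the body. The tomosyn gene tom-1 had 24.5 in its body and 45.0 at 5247 bp upstream of a start.

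All 3 synaptic vesicle genes had a promoter candidate. The synapsin gene snn-1 had 58.3, 174 bp upstream of a start, with 25.7 and 33.1 in the replicates. The synaptogyrin gene sng-1 had 39.1. The small GTPase gene rab-3 had 35.8, with a counterpart in replicate 2 alone (signal value 30.3), and no overlapping candidate in replicate 1.

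Of the 4 endocytosis genes, 2 had a promoter candidate, and the strongest region was at the endophilin gene unc-57, 1091 bp upstream of its closest start and so just outside the promoter window. It was an IDR peak on chromosome I from 4673817 to 4674266, with a pooled signal value of 88.2 and rank 277. The replicates gave 50.5 (rank 183) and 30.3 (rank 1718), or 40.4 ± 14.3 (SD, n = 2). It overlapped a weaker pooled region, of rank 2242, whose summit was inside the window, 887 bp upstream, so that both share their replicate regions. With promoter windows reaching 2000 bp upstream, 2 genes had an IDR peak in the promoter, against 1.47% of all genes. The AP180 gene unc-11 had a promoter region of 62.8 at 867 bp upstream, with 22.4 in replicate 1 and 39.7 in replicate 2. The synaptojanin gene unc-26 and the EPS15 gene ehs-1 had only body candidates, of 41.7 and 36.7.

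The 5 dense-core vesicle genes each had a body candidate, against 38.5% of all genes. By any assignment, 3 of the 5 had a region among the 1000 strongest, against 5.40%. The carboxypeptidase gene egl-21, which trims neuropeptides, had a region 20 bp downstream of its start, in an untranslated part of an exon, with a pooled signal value of 68.6. The replicates gave 40.4 and 23.04, or 31.7 ± 12.3 (SD, n = 2). The proprotein convertase gene egl-3, which cuts neuropeptide precursors, had its strongest region 1163 bp upstream with 77.4 in the pooled list, 54.0 (rank 145) in replicate 1 and 25.1 (rank 3516) in replicate 2. The CAPS gene unc-31, which primes dense-core vesicles, had 81.4 at 2191 bp upstream, and 42.4 and 36.5 in the replicates. Thus the strongest regions of egl-3 and unc-31 lay beyond the promoter window, and that of egl-21 at the start. The ICA69 gene ric-19 had 44.02 in its body and 0.833 body candidates per kb, and the IA-2 gene ida-1 had 34.1.

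The transport and axon genes held the strongest region of all 41. All 8 had a body candidate and 5 a promoter candidate. The gene unc-51, the worm ULK kinase needed for axon growth and autophagy, occupies positions 19995986 to 20004485 of chromosome V. It had 2 IDR peaks inside the gene, no candidate in its promoter window and a region of 63.0 at 1498 bp upstream. The stronger, in an intron 4472 bp from the start, had a pooled signal value of 110.9 and rank 134. Its replicates differed: 30.1 (rank 1638) and 80.8 (rank 44), or 55.4 ± 35.8 (SD, n = 2). The other, in a coding exon 3299 bp from the start, had 92.6, with 48.4 and 38.6 in the replicates, or 43.5 ± 6.95 (SD, n = 2). A further intronic region had 83.1 and rank 349, just outside the IDR list, with 39.8 and 46.3 in the replicates. The sequences of the strongest region and of this one printed above hold repeats of short words. The former has 4 copies of TTGGTCC, a word found on either strand within 50 bp of 0.966% of all pooled summits. The latter has 3 marked copies of CTTAGG, found likewise at 2.21%. Neither word was chosen in advance, so these shares are a description only. The gene held 7 body candidates, or 0.824 per kb. Nearby candidates also lay outside it on both sides, up to 63.0 upstream and 36.8 downstream. The density is thus not shown to be particular to the gene body.

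The strongest regions of the other transport genes lay at starts in some and in introns in others. The FEZ1 gene unc-76, a kinesin adaptor, had a promoter region 90 bp upstream with 75.2 in the pooled list, 30.8 in replicate 1 and 44.8 in replicate 2. The gene unc-14, which acts with unc-51, had 63.8 at 19 bp downstream of its start, and 32.8 and 28.4 in the replicates, or 30.6 ± 3.07 (SD, n = 2). The kinase gene jnk-1 had an intronic region of 77.4, 1237 bp upstream of an internal start, with 42.9 and 30.1 in the replicates and the non-coding RNA gene B0478.25 within 100 bp. The kinesin-3 gene unc-104, which carries synaptic vesicle precursors, had a single intronic candidate of 52.3. Words of 36 bases within that region occurred once in the genome in only 73.7% of positions. The CRMP gene unc-33 had 6 body candidates, the strongest at 47.4. The kinesin-1 gene unc-116 had 3 body candidates, some overlapping, or 0.748 per kb, none above 40.7. The JIP3 gene unc-16 had 41.6 in a promoter window.

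Among the 4 remaining genes, rgef-1, a Ras exchange factor gene whose promoter is a common pan-neuronal driver, had a promoter region 324 bp upstream of its start with a pooled signal value of 82.8 and rank 353. The replicates gave 35.4 (rank 827) and 54.1 (rank 193), or 44.7 ± 13.3 (SD, n = 2). The macoilin gene maco-1 had 59.0 in its promoter window, with 19.2 in replicate 1 and 40.2 in replicate 2, and ric-7, needed to bring mitochondria into axons, had 53.1 at the outer edge of its window. For ric-8, which encodes a factor that activates G protein alpha subunits, the strongest region lay 7708 bp downstream of the closest start, beyond the end of the gene and in an intron of another, with 60.0. Its replicates gave 39.2 and 17.6.

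The replicates ranked these regions differently. Of the 40 strongest regions, 1 per gene, 35 overlapped a candidate of both replicates by at least 1 bp and 5 overlapped a candidate of 1 replicate. Of all 21336 pooled candidates, weaker ones included, 10813 overlapped a candidate of both. With summits required to lie within 100 bp of each other, 26 of the 40 were matched in both, against 6203 of the 21336. The rank was better in replicate 1 for 20 and in replicate 2 for 15, and it differed by more than 10 times for 9. The share of all pooled candidates with such a gap was not counted, so it is not shown to be particular to these genes. Over all candidates at these genes, 93 of 147 were matched in both replicates (63.3%), against 50.7% of all pooled candidates. Matching depended on rank. Among the 2000 strongest the shares were 100% and 98.4%, and among the weaker regions 55.7% and 45.7%. The 4 strongest regions that ranked within 1000 in both were those of cla-1, rgef-1, syd-2 and unc-31. Counting every region at a gene, 5 of the 41 genes had one within 1000 in both replicates (12.2%), against 2.55% of all protein-coding genes, and 9 had one within 2000 (22.0%), against 4.49%. Among the 327 strongest regions of replicate 1 were regions of egl-3, unc-57, cla-1 and unc-51, and among those of replicate 2 regions of unc-51, rgef-1 and sad-1. The only gene in both sets was unc-51, with a different region in each.

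**Figure D4:**
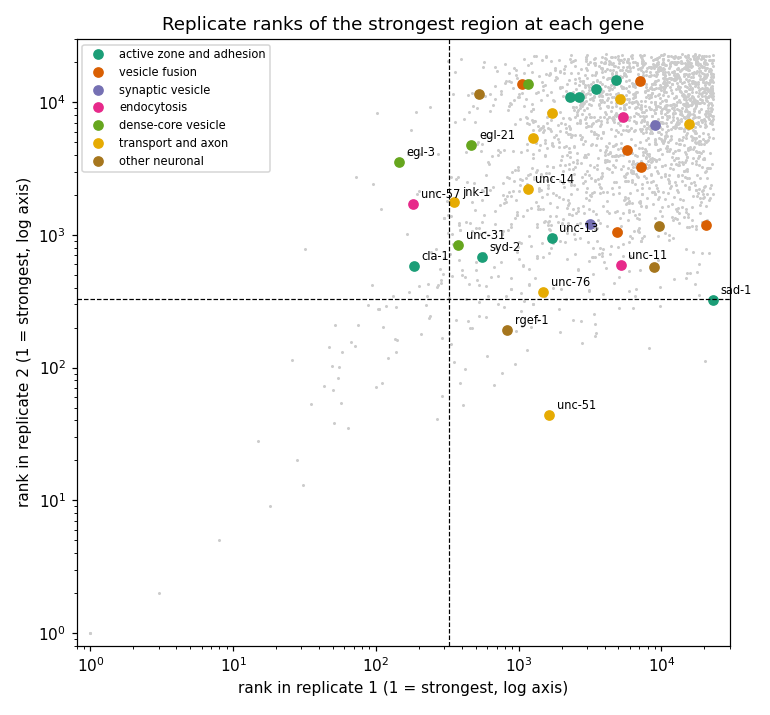
Rank in replicate 1 against rank in replicate 2 (log axes, 1 is the strongest) of the strongest pooled region at each gene matched in both replicates, coloured by role; grey points are 1 in 5 of the pooled candidates and dashed lines mark rank 327. The regions of cla-1, syd-2, unc-31 and rgef-1 rank within 1000 in both, while sad-1 ranks 321 in replicate 2 and 22847 in replicate 1.

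The core word of GFI binding, AATCAC, was about as frequent as in other candidates. On either strand it was found at 7 of the 147 summits, within 50 bp (4.76%), against 4.30% of all pooled candidates. None of the 25 regions among the 2000 strongest held it, against 3.25% of all regions of that rank. Its absence says only that these letters were not in the window. Mean GC content was 49.8% ± 7.07 (SD over regions, n = 25) in those 25 and 49.6% ± 8.85 in all of the 2000 strongest.

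A different word, noticed in the sequences printed above and therefore a description only, recurred at the stronger regions. ATCGAT, which reads the same on both strands, was found within 50 bp at 7 of the 25 summits (28%), against 3.80% of the 2000 strongest regions. Over all 147 it was at 10.9%, against 3.44% of all pooled candidates, and with 100 bp on each side at 12.9%, against 6.82%. The 7 were the regions of unc-57, rgef-1, syd-2, jnk-1, egl-21 and unc-11 and the distal region of cla-1. Among the 122 weaker regions the share was 7.38%, against 3.40%. In the 2000 strongest regions of replicate 2 it was at 5 of the 22 at these genes (22.7%), against 3.35% of all. In those of replicate 1 it was at 6 of the 27 (22.2%), against 4.00%. The pooled list was made from these 2 replicates, so their shares are not independent of the 28%. The repeat-like word GAAGAA, on either strand, was at 9 of the 25 (36%), against 13.8%. It was at 13 of the 38 promoter regions (34.2%), against 13.7% of all promoter candidates. Over all 147 regions GAAGAA was less frequent, at 21.1%, against 13.4% of all pooled candidates. Among the 122 weaker regions its share was 18.03%, against 13.3%.

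In 64 other synaptic and neuronal genes, a list drawn up by hand, promoter candidates were about as frequent. A promoter candidate was present at 35 of the 64 (54.7%, Wilson interval 42.6% to 66.3%), against 31.0% of all genes. Among the 2000 strongest regions, 6 of the 64 had one in the promoter (9.38%, against 4.52% of all genes and 26.8% of the 41). In the body the order was the other way, with 11 of the 64 (17.2%), against 4.38% of all genes and 12.2% of the 41. By any assignment the 1000 strongest reached 20.3% of the 64 and 26.8% of the 41, against 5.40% of all genes. IDR peaks lay at 4 of the 64 by any assignment (6.25%, against 2.05%). They were at unc-41, the stonin gene of endocytosis (141.5, in an intron within 100 bp of the snoRNA gene C27H6.5), slo-1, a potassium channel gene (114.0, in a coding exon), snt-4, a synaptotagmin gene (94.3), and nsf-1, which disassembles SNARE complexes (93.7, also in the promoter window of adr-1). The latter pair lay in promoter windows, as did the region of the Rab2 gene unc-108 (72.3). The median signal value of the strongest promoter candidate was 38.3 in this list. The difference between the lists was not tested.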

How the data were processed

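ChIP-seq of tagged PAG-3 in 2 biological replicates was used as the authors' deposited region lists, pooled, per replicate and past an IDR threshold. Each list gives a signal value per region and a -log10 q value, read by the usual column layout of such lists, which the authors made from the aligned reads and a further input file not analysed here, per the text files deposited with the lists. Peak caller, aligner, IDR threshold and depth are not given in the sources used here.

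Genes came from Ensembl release 115 and sequence from RefSeq's copy of the same assembly, WBcel235 (ce11). No coordinate was converted, and of the ce10 lists only the number and lowest signal value of the IDR peaks were used. A pooled region was matched to the strongest candidate of a replicate that shared 1 bp or more with it. Replicate signal values were set side by side without rescaling, and those given with a mean ± SD cover 2 replicates. Intervals of shares are 95% Wilson intervals. With 1 group no test between samples was possible, and counts are set beside those over all protein-coding genes. The assignment of regions was tested on simulated data.

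Genes given with values were those with an IDR peak, the 10 with the strongest promoter candidate, the 6 with the strongest body candidate, the 5 with most body candidates and the 5 with most per kb. Others were added for their role after their values were seen. The genes and lists were chosen with earlier results of these data known. In the second list, rab-27 and nca-1 were not matched, and 64 of 66 names were used. Python 3.11.15, numpy 2.4.6, pandas 2.3.3, scipy 1.17.1 and matplotlib 3.10.9 were used.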

Additional observations from a re-analysis of the deposited data

How the results depend on the processing

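No paired analysis was possible because there was 1 group. Depth is unknown, so a missing region was not shown to be absent binding. With promoter windows of 500 bp upstream to 100 bp downstream, 15 of the 41 genes had a promoter candidate (20.0% of all genes), 7 had one among the 2000 strongest, and the median signal value was 43.1. Over all genes the latter values were 3.03% and 34.6. With 2000 bp upstream these were 31 (43.2% of all genes), 17 (6.69%) and 54.7 (34.97 over all genes). In that window 2 genes had an IDR peak in the promoter (1.47%). Any overlap of the region also gave 2 (1.27%). With the outermost start alone the IDR count in promoters was 0 (0.986% of all genes) and the median 48.1 (33.9 over all genes). In the upper part of the IDR list 0 genes had a promoter peak (0.591% of all genes) and 1 had a peak by any assignment (1.05%). With limits added after the data were seen, promoter counts were 3 at the ce10 number, 6 at the 1000 strongest and 11 at the 2000 strongest, and counts by any assignment 8, 11 and 19. Leaving out a replicate gave 25 to 29 genes with a promoter candidate (31.6% to 33.01% of all genes), 6 to 10 among the 2000 strongest (4.05% to 4.76%), 3 to 4 with a strongest-327 region by any assignment (1.91% to 2.00%), and 1 to 1 in promoters (0.971% to 1.06%). Median signal values were then 20.9 to 22.4 (19.1 and 18.7 over all genes), on the lower scale of the replicate lists. Body candidates per kb were 0.244 without replicate 1 (0.237 over all genes) and 0.257 without replicate 2 (0.240). They were 0.105 in the stronger part of the candidates (0.107 over all genes), and 1.31 per 100 kb among the 2000 strongest without unc-51. AATCAC was at 9.52% of regions with 100 bp each side (8.83% of all), and AAATCA at 10.2% (10.9% of all). ATCGAT was at 3.40% with 25 bp each side (1.63% of all) and 12.9% with 100 bp (6.82%), and GAAGAA at 38.8% with 100 bp (24.995%) and 13.6% with 25 bp (6.66%). Of the 40 strongest regions, 34 were matched in both replicates with an overlap of 50% of the region and 26 with summits within 100 bp. Of all 21336 pooled candidates, 9117 and 6203 were so matched. The cause of these changes was not tested beyond the wider or narrower windows and limits themselves.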

Other observations

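Few regions at these genes lay in repeated sequence by the measure used. Under 90% of the words of 36 bases were unique in 6 of the 147 regions (4.08%), against 7.58% of all pooled candidates and 23.9% of the IDR peaks. The lowest was an intronic region of unc-51 at 52.3%, with a pooled signal value of 41.3. A tRNA or snoRNA gene lay within 100 bp of 1 of the 147 summits, an intronic region of unc-33 of rank 19829. Any non-coding gene or pseudogene lay as near to 15 of the 147 (10.2%). Neither share was counted over all pooled candidates, so neither is shown to be particular to these genes. Introns held 38.1% of the 147 summits, against 30.7% of all pooled candidates, and coding exons 23.1%, against 28.9%.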
